A study of Mus musculus with 6 samples.

Results

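The 10 genes Aqp4, Gfap, S100b, Slc1a2, Slc1a3, Aldh1l1, Gja1, Glul, Apoe and Clu are widely used markers of maturing astrocytes. They were taken by gene symbol from a count table of 24421 genes, in which all 10 were found. They were compared between embryonic neural stem cells lacking Pml (labelled PML knockout, Pml-/- in the series' design) and WT cells, with 3 libraries per genotype. Both genotypes were primary cells from E13.5 mouse brain, grown as neurospheres in 20 ng/ml EGF and 20 ng/ml FGF2 at 20% oxygen and 5% CO2, and collected 4 days after they were dissociated. RNA was read as 3′ tags (QuantSeq forward), so that a transcript gives reads near its end whatever its length. Promyelocytic leukemia protein, the product of Pml, scaffolds nuclear bodies. The labels give neither the deleted part of the gene nor the origin of each replicate, so p-values measure the spread between these 6 libraries, which may be technical.

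Astrocytes arise from radial glia after most neurons have been born. Notch, BMP and JAK-STAT signalling and the nuclear factor I proteins promote this switch, while EGF and FGF2 keep cultured progenitors dividing. As astrocytes mature they acquire filaments of glial fibrillary acidic protein, take up and detoxify glutamate, couple through gap junctions, gather water channels at endfeet around blood vessels, and secrete lipoproteins. Several of these genes, among them Slc1a3, are also active in radial glia, and Apoe, Clu, Glul and Aldh1l1 are strongly expressed in liver.

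The libraries held 4980638 to 5917505 counts in Pml knockout cells and 1775152 to 4413318 in WT cells. The 45S ribosomal precursor (Rn45s) took 14.6 to 17.6% of counts in the knockout libraries. It took 41.9%, 39.8% and 19.6% in WT replicates 1, 2 and 3. Levels below are CPM, the reads of a gene relative to a library's total on a fixed scale, with totals adjusted by the trimmed mean of M values. The libraries did not all group by genotype. WT replicate 3 had rank correlations over all tested genes of 0.929 to 0.956 with the 3 knockout libraries, against 0.915 with WT replicate 1 and 0.789 with WT replicate 2. All 6 carry 1 date label. Pml had 14, 23 and 5 reads in knockout replicates 1, 2 and 3, and 36, 35 and 44 in WT replicates 1, 2 and 3. Its log2 fold change (knockout over WT) was -2.81 (SE 0.661, edgeR quasi-likelihood adjusted p = 0.197), so the targeted gene was lower in every knockout library than in any WT library but did not pass. Whether its 3′ tags lie inside the deleted part is not given in the labels. Markers of the labelled cell type were present in both genotypes. Sox2, a stem cell transcription factor, averaged 687 ± 94.8 CPM in knockout and 805 ± 285 CPM in WT libraries, and the filament gene Vim 3071 ± 260 and 2975 ± 240 CPM (SD, n = 3 each).

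All 10 markers had enough reads to be tested, and 0 passed an adjusted p of 0.05 in either direction by edgeR's quasi-likelihood test over 11317 genes. Of all tested genes, 0.00884% passed as higher and 0% as lower. The markers split evenly, 5 above and 5 below a log2 fold change of 0, with a median of -0.02 beside -0.01 for all tested genes. With the same 6 libraries 8 were above 0 and 2 below under limma voom (median 0.26, beside 0.05 for all tested genes), limma voom with library quality weights (0.35, beside 0.02) and scaling by library totals alone (0.55, beside 0.43). At an unadjusted p under 0.05, 2 were higher in the knockout (Aqp4 and Gja1) and 0 lower, where 6.7% of all tested genes were higher and 9.19% lower. The knockout and WT libraries did not overlap for 1 marker on the higher side, Aqp4, and for 0 on the lower side, where 12.3% and 11.3% of all tested genes did so. In bulk RNA, a change in the number of cells expressing a gene and a change in RNA per cell cannot be told apart.

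**Figure D1:**
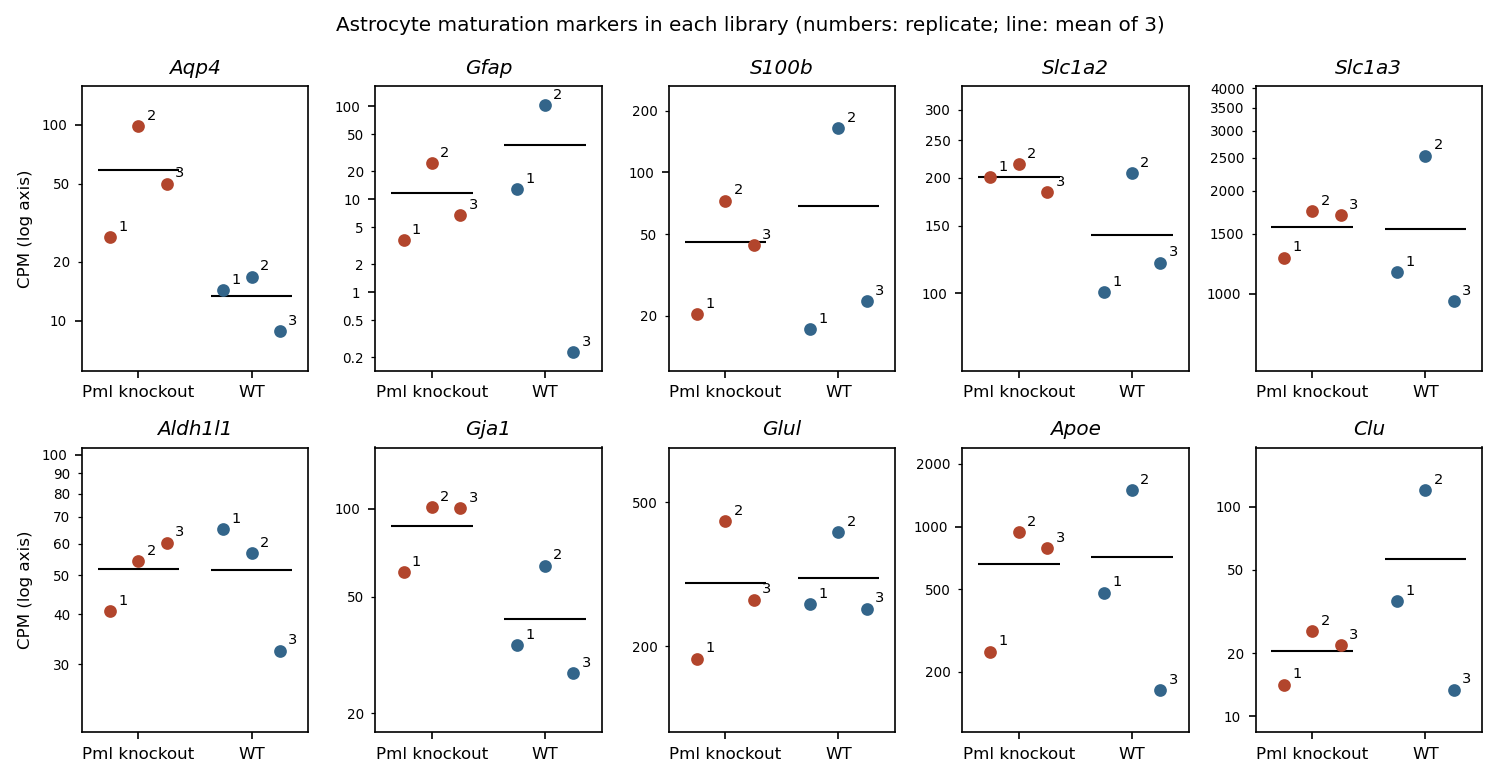
CPM of each marker (log axis, range differs by panel) in 3 Pml knockout libraries (red, left) and 3 WT libraries (blue, right), with replicate numbers beside the points and a line at the mean of 3. The groups are apart only for Aqp4, and WT replicate 2 is the top WT point for every marker but Aldh1l1.

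Aqp4 encodes aquaporin-4, the water channel of astrocytic endfeet (ENSMUSG00000024411.10, chromosome 18, 15389496 to 15410982, minus strand, GRCm38). It had 178, 598 and 336 reads in Pml knockout replicates 1, 2 and 3, against 48, 21 and 39 in WT replicates 1, 2 and 3. In CPM these were 26.8, 98.6 and 50.1 in the knockout, against 14.3, 16.8 and 8.85 in WT. Every knockout library lay above every WT library, the lowest knockout value being 1.60 times the highest WT value, and the knockout libraries themselves spanned 3.68-fold. The means were 58.5 ± 36.6 CPM in knockout and 13.3 ± 4.06 CPM in WT libraries (SD, n = 3 each). The log2 fold change was 2.17 (SE 0.492, 95% interval 1.08 to 3.27), with an unadjusted p of 0.00127 in the quasi-likelihood fit over all genes and an adjusted p of 0.197, which did not pass.

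The call on Aqp4 differed between tools. DESeq2 gave an adjusted p of 0.00563 and called 1 of the 10 markers higher and 0 lower, beside 0.928% and 1.97% of all tested genes. The edgeR exact test gave 0.00688, with 1.3% of all tested genes called higher. In the authors' deposited table Aqp4 had a log2 fold change of 2.19 and an adjusted p of 0.00212. It was the only one of the 10 below 0.05 in the authors' deposited table, where 1.13% of genes were called higher and 1.81% lower. Without WT replicate 3 the quasi-likelihood adjusted p was 0.0404. Without Pml knockout replicate 2, the library with the most Aqp4, it was 0.714 and the log2 fold change 1.57. Gja1 and Clu had the same adjusted p in that fit. Without knockout replicate 1 the adjusted p of Aqp4 was 0.413 (log2 fold change 2.525), and without knockout replicate 3 it was 0.609 (2.27). With any knockout library left out, no gene at all was called in either direction. The sign was positive in all 20 alternatives, between 1.57 and 2.71.

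The complex that anchors aquaporin-4 at the endfoot membrane was read alongside it. Of 10 listed genes 9 were tested, of which 7 had a fold change above 0 and 2 below, with a median log2 fold change of 0.43. By edgeR 0 passed, and 0 had an unadjusted p under 0.05 (edgeR). Kcnj10, the inward-rectifier potassium channel Kir4.1, averaged 60.6 ± 15.2 CPM in knockout and 38.0 ± 11.96 CPM in WT libraries (edgeR log2 fold change 0.65, SE 0.323, adjusted p = 0.349). Agrn, the matrix proteoglycan agrin, averaged 176 ± 39.3 and 123 ± 16.7 CPM in knockout and WT libraries (edgeR log2 fold change 0.53, SE 0.265, adjusted p = 0.358). Trpv4, a cation channel, had no read in any library.

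Gja1 encodes connexin 43, the main gap junction protein of astrocytes (ENSMUSG00000050953.10, chromosome 10, 56377330 to 56402513, plus strand, GRCm38). It had 403, 615 and 673 reads in the knockout libraries, against 115, 80 and 121 in WT. In CPM these were 60.6, 101 and 100.4 in the knockout, against 34.2, 64.0 and 27.5 in WT. The groups overlapped through a single pair, since WT replicate 2 lay just above knockout replicate 1 and every other knockout value exceeded every WT value. The means were 87.5 ± 23.3 CPM in knockout and 41.9 ± 19.4 CPM in WT libraries (SD, n = 3 each). The edgeR log2 fold change was 1.09 (SE 0.370, 95% interval 0.27 to 1.92, unadjusted p = 0.0143, adjusted p = 0.238). DESeq2 gave an adjusted p of 0.123 and the authors' deposited table gave 0.0820. With WT replicates 1 and 2 both left out, Gja1 was the 1 marker called higher (adjusted p = 0.0224), beside 0.748% of all tested genes. That fit holds a single WT library, which is taken to vary as the knockout libraries do.

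Of 7 genes listed as gap junction partners, 3 were tested, 2 with a fold change above 0 and 1 below (median log2 fold change 0.32). Of these 0 passed, and 0 had an unadjusted p below 0.05 by edgeR. Panx1, a pannexin channel, averaged 12.9 ± 2.52 CPM in knockout and 25.9 ± 17.8 CPM in WT libraries (edgeR log2 fold change -0.95, SE 0.467, adjusted p = 0.348). Gjb6, which encodes connexin 30, the other astrocytic connexin, had too few reads to test: 2, 10 and 25 in the knockout libraries and 1, 3 and 0 in WT.

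Neither of the 2 glial glutamate transporters passed. Slc1a2 encodes GLT-1, the dominant transporter of mature astrocytes (ENSMUSG00000005089.15, chromosome 2, 102658659 to 102790784, plus strand, GRCm38). It had 1335, 1312 and 1231 reads in the knockout libraries, against 338, 257 and 530 in WT, or 201, 216 and 184 CPM in the knockout, against 101, 205 and 120 CPM in WT. The knockout libraries lay within 1.18-fold of each other, and WT replicate 2 fell inside their range. Means were 200 ± 16.4 and 142 ± 55.7 CPM in knockout and WT libraries, with an edgeR log2 fold change of 0.50 (SE 0.304, 95% interval -0.17 to 1.18, adjusted p = 0.435).

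Slc1a3 encodes GLAST, which radial glia already express (ENSMUSG00000005360.14, chromosome 15, 8634124 to 8710764, minus strand, GRCm38). It had 1275, 1743 and 1701 CPM in the knockout libraries, against 1159, 2536 and 950.4 CPM in WT. The knockout values all lay inside the WT range. Means were 1573 ± 259 CPM in knockout and 1548 ± 861 CPM in WT libraries, with an edgeR log2 fold change of 0.02 (SE 0.390, 95% interval -0.84 to 0.89, adjusted p = 0.982). In folds, that interval spans from 0.557 to 1.86.

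Glul encodes glutamine synthetase, which converts captured glutamate to glutamine (ENSMUSG00000026473.15, chromosome 1, 153899944 to 153909723, plus strand, GRCm38). It had 185, 443 and 269 CPM in the knockout libraries, against 261, 414 and 254 CPM in WT. The lowest and the highest of the 6 values were both knockout libraries. The edgeR log2 fold change was -0.05 (SE 0.358, 95% interval -0.84 to 0.75, adjusted p = 0.958).

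Among 15 other genes of glutamate and glutamine handling, 13 were tested, 10 with a fold change above 0 and 3 below, with a median log2 fold change of 0.12. By edgeR 0 passed, and at an unadjusted p under 0.05 there was 1 in each direction, beside 6.7% of all tested genes higher and 9.19% lower. Glud1, glutamate dehydrogenase, averaged 846 ± 273 CPM in knockout and 447 ± 86.9 CPM in WT libraries (edgeR log2 fold change 0.92, SE 0.317, adjusted p = 0.239). Got2, the mitochondrial aspartate aminotransferase, averaged 96.6 ± 21.8 and 223 ± 114 CPM in knockout and WT libraries (edgeR log2 fold change -1.20, SE 0.394, adjusted p = 0.238).

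Gfap encodes glial fibrillary acidic protein, the filament that marks astrocytes (ENSMUSG00000020932.14, chromosome 11, 102887336 to 102900912, minus strand, GRCm38). It had 24, 149 and 45 reads in the knockout libraries, against 43, 129 and 1 in WT. In CPM these were 3.61, 24.6 and 6.71 in the knockout, against 12.8, 103 and 0.227 in WT. All 3 knockout values lay inside the WT range, and the WT libraries ran from 1 read in a library of 3934519 counts to 129 reads in the smallest library, of 1775152 counts. Its edgeR log2 fold change of -1.64 had an SE of 1.25 and a 95% interval from -4.41 to 1.13 (adjusted p = 0.532). It was 0.90 without WT replicate 2 and -2.24 without WT replicate 3, so its direction changed with WT replicate 2.

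S100b, a calcium-binding protein gene of astrocytes (ENSMUSG00000033208.7), lies on the plus strand of chromosome 10 at 76253853 to 76261159 (GRCm38). Its levels were 20.5, 72.9 and 44.3 CPM in the knockout libraries, against 17.3, 165 and 23.6 CPM in WT. The knockout values again lay inside the WT range, which spanned 9.54-fold, because WT replicate 2 stood far above the other 2 WT libraries. By edgeR its log2 fold change was -0.53 (SE 0.773, 95% interval -2.25 to 1.19, adjusted p = 0.753), and 1.16 without WT replicate 2. All 13 listed intermediate filament and S100 genes were tested, 4 with a fold change above 0 and 9 below, with a median log2 fold change of -0.39, by edgeR 0 of them passing and 0 reaching an unadjusted p of 0.05. Without WT replicate 2 the list had 6 above and 7 below (median -0.07), and without both WT replicates 1 and 2 it had 10 above and 3 below (median 0.40). Lmnb1, which encodes lamin B1, averaged 280 ± 53.7 CPM in knockout and 415 ± 87.6 CPM in WT libraries (edgeR log2 fold change -0.57, SE 0.277, adjusted p = 0.342).

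Aldh1l1 encodes a folate enzyme, 10-formyltetrahydrofolate dehydrogenase, used as a pan-astrocyte marker (ENSMUSG00000030088.15, chromosome 6, 90486427 to 90600203, plus strand, GRCm38). It had 40.8, 54.3 and 60.4 CPM in the knockout libraries, against 65.2, 56.8 and 32.5 CPM in WT. The groups overlapped throughout, with means of 51.8 ± 10.04 and 51.5 ± 17.0 CPM in knockout and WT libraries. The edgeR log2 fold change was 0.02 (SE 0.327, 95% interval -0.71 to 0.74, adjusted p = 0.984). The antisense gene Gm15756 shares 245 of the last 500 annotated bases of Aldh1l1, and since the strand setting of the authors' counting is not given in the sources used here, reads of these 2 genes cannot be told apart. None of the other 9 markers shares exonic bases with another gene in its last 500 bases. Of 10 other folate one-carbon enzymes, all tested, 3 had a fold change above 0 and 7 below (median log2 fold change -0.51). By edgeR 0 passed, and 2 were higher and 0 lower at an unadjusted p under 0.05, beside 6.7% and 9.19% of all tested genes. Aldh1l2, the mitochondrial counterpart of Aldh1l1, averaged 48.6 ± 16.7 CPM in knockout and 25.6 ± 13.7 CPM in WT libraries (edgeR log2 fold change 0.97, SE 0.425, adjusted p = 0.303).

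Apoe and Clu encode secreted apolipoproteins, apolipoprotein E and clusterin (apolipoprotein J). Apoe (ENSMUSG00000002985.16) lies on the minus strand of chromosome 7 at 19696109 to 19699188 (GRCm38). It stood at 250.2, 941 and 788 CPM in the knockout libraries, against 482, 1500 and 164 CPM in WT. All knockout values lay inside a WT range of 9.15-fold. By edgeR its log2 fold change was -0.11 (SE 0.700, 95% interval -1.67 to 1.45, adjusted p = 0.951), and 1.05 without WT replicate 2. Clu (ENSMUSG00000022037.15) lies on the plus strand of chromosome 14 at 65968483 to 65981547 (GRCm38). It stood at 14.1, 25.4 and 21.8 CPM in the knockout libraries, against 35.4, 120 and 13.4 CPM in WT. WT replicates 1 and 2 lay above every knockout library and WT replicate 3 below them all. By edgeR the log2 fold change of Clu was -1.41 (SE 0.648, 95% interval -2.85 to 0.03, adjusted p = 0.323). Without WT replicate 3 it was -1.87 and passed (adjusted p = 0.0301). In that fit 1 marker was called higher (Aqp4) and 1 lower (Clu), beside 5.01% and 7.97% of all tested genes. Without WT replicate 2 it was -0.23 (adjusted p = 0.803).

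Of 15 further genes of lipoprotein handling 13 were tested, 8 with a fold change above 0 and 5 below, with a median log2 fold change of 0.10. By edgeR 0 passed, and 3 were higher and 1 lower at an unadjusted p under 0.05, beside 6.7% and 9.19% of all tested genes. Vldlr, a receptor for apolipoprotein E and reelin, averaged 157 ± 35.3 CPM in knockout and 60.0 ± 3.30 CPM in WT libraries (edgeR log2 fold change 1.39, SE 0.268, adjusted p = 0.197). Nr1h3, the sterol-sensing nuclear receptor LXR alpha, averaged 1.33 ± 0.811 and 5.78 ± 2.90 CPM in knockout and WT libraries (edgeR log2 fold change -2.03, SE 0.712, adjusted p = 0.240).

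The 10 markers ordered the libraries alike within each genotype. In the knockout, replicate 2 was the highest library for 9 of the 10 and replicate 1 the lowest for 9. In WT, replicate 2 was the highest for 9 and replicate 3 the lowest for 8. Over all tested genes, knockout replicate 2 was the highest knockout library for 34.4%, knockout replicate 1 the lowest for 36.3%, WT replicate 2 the highest WT library for 38.2% and WT replicate 3 the lowest for 35.9%. The exceptions were Aldh1l1, highest in knockout replicate 3 and WT replicate 1, Slc1a2, lowest in knockout replicate 3 and WT replicate 1, and S100b, lowest in WT replicate 1. Relative to each gene's mean over 6 libraries, WT replicate 2 stood at 3.48 for Gfap, 2.10 for Clu, 2.01 for S100b and 1.50 for Apoe on the log2 scale, and WT replicate 3 at -3.84, -1.03, -0.77 and -1.69.

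**Figure D2:**
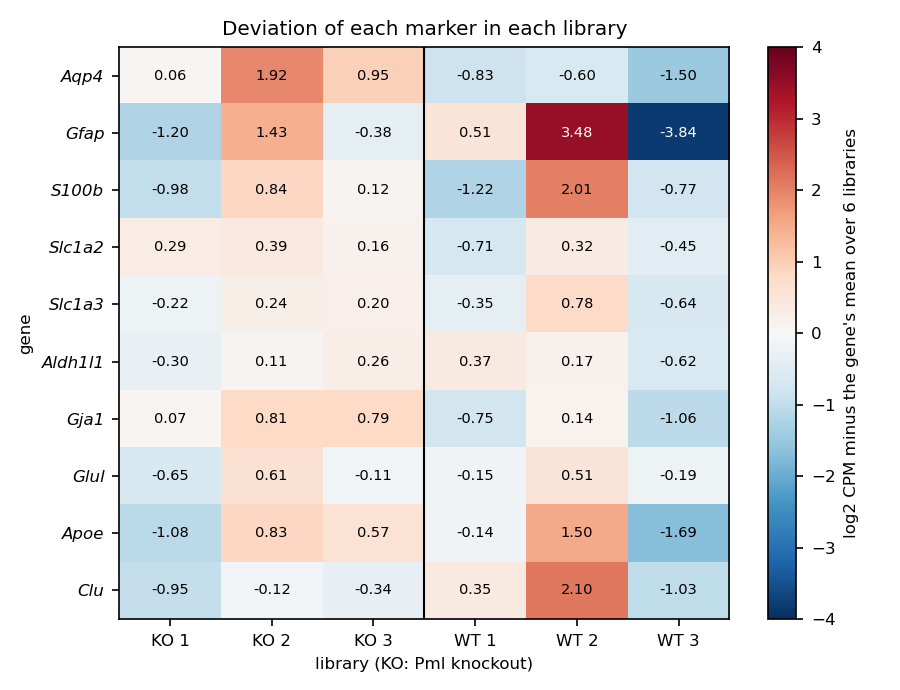
Deviation of each marker from its own mean over the 6 libraries, in log2 CPM (prior count 2), with Pml knockout libraries (KO) left of the line and WT libraries right of it. WT replicate 2 and KO replicate 2 are red for most genes, with WT replicate 2 up to 3.48 for Gfap, and WT replicate 3 is blue for all 10.

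The direction of the group changed with the libraries in the fit. With all libraries 5 markers were above 0 and 5 below, also when scaled by DESeq2 size factors or upper quartiles. Scaling by library totals gave 8 above and 2 below, with the median of all tested genes at 0.43. Without WT replicate 2, 9 were above and 1 below, with a median log2 fold change of 0.88, while the median of all tested genes was 0.01. Without WT replicate 3, 3 were above and 7 below, with a median of -0.22 beside 0.03 for all genes. Leaving out WT replicates 1 and 2 together put all 10 above 0, with a median of 0.84 beside 0.03. Leaving out knockout replicate 1 gave 7 above and 3 below (median 0.20), and leaving out knockout replicate 2 gave 3 above and 7 below (median -0.24). Aqp4, Gja1 and Slc1a2 had a fold change above 0 in all 20 alternatives computed, which include these. Limma voom with library quality weights, which gave WT replicates 2 and 3 weights of 0.392 and 0.353 and WT replicate 1 a weight of 1.62, called these 3 higher, at adjusted p-values of 0.0269, 0.0136 and 0.0424, beside 4.26% of all tested genes.

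**Figure D3:**
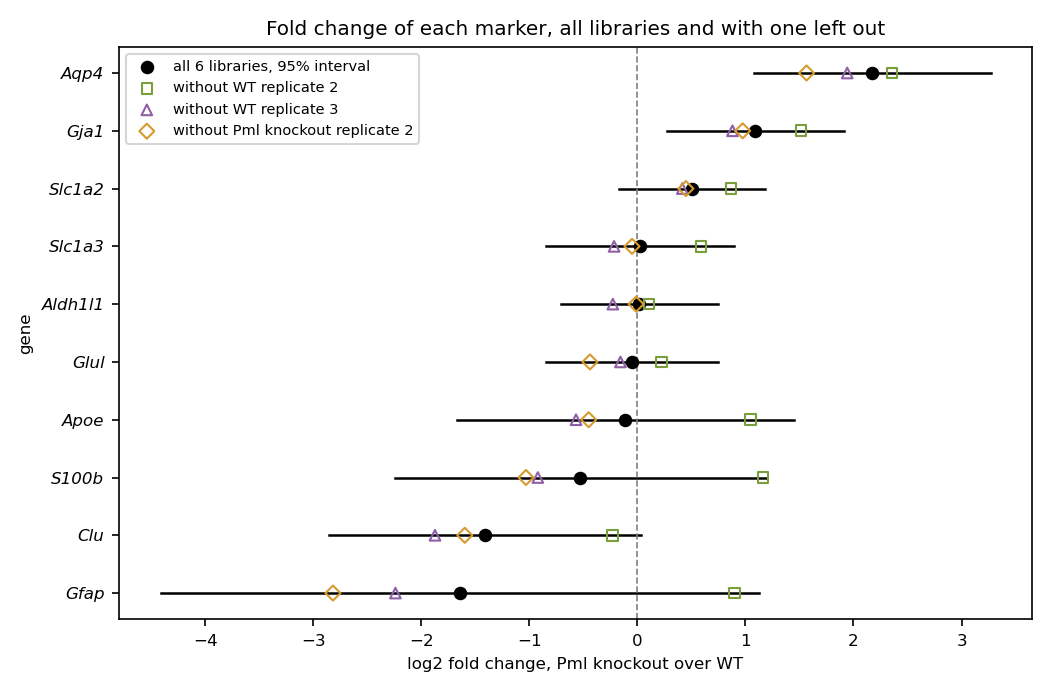
Log2 fold change of each marker, Pml knockout over WT, by edgeR with all 6 libraries (black points, 95% intervals) and with 1 library left out (open symbols). Without WT replicate 2 the values of Gfap, S100b, Apoe and Glul move from below 0 to above it, and Aqp4 and Gja1 stay above 0 throughout.

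The markers also differed in how far they varied among libraries. In the knockout, Slc1a2 varied least, with a coefficient of variation of 8.17% over 3 libraries, and Gfap most, with 97.3%. In WT, Glul varied least (29.1%) and Gfap most (145%). The 2 glutamate transporters had the profiles nearest to each other, with a root mean square difference of 0.33 (log2 CPM, centred, over 6 libraries), followed by Slc1a3 and Glul at 0.35 and Slc1a3 and Aldh1l1 at 0.39. Aqp4 and Gfap, at 2.14, were the pair farthest apart.

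Across 10257 tested genes with an SD above 0.25 (log2 CPM), the nearest profile to each marker was found by the same measure, as a description of these 6 libraries. Aqp4 was nearest to Pdzrn3, a PDZ-domain ubiquitin ligase (0.19), which had 38.2, 137 and 47.6 CPM in the knockout libraries, against 16.4, 21.6 and 10.7 CPM in WT. Gja1 was nearest to Aplp1, an amyloid precursor-like protein gene (0.15), and Slc1a3 to Tpcn1, a lysosomal cation channel gene (0.034). S100b was nearest to Fos, an immediate early transcription factor gene (0.34), which had 22.9, 68.6 and 41.5 CPM in the knockout libraries, against 23.2, 166 and 14.3 CPM in WT. Gfap had no near neighbour, since the nearest, Rnf208, differed by 0.95. For Slc1a2, Aldh1l1, Glul, Apoe and Clu the nearest genes were Emx2os (0.099), Relt (0.11), Cyp7b1 (0.11), Id4 (0.26) and Ppfia3 (0.15).

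Promoter sequences of 8 of the markers were taken from RefSeq (GRCm38.p6), as the 250 bases before an annotated start, 10 sequences in all. They were searched on both strands for TTCNNNGAA (STAT factors), TTGGCA (part of the nuclear factor I site), GTGGGAA (RBPJ, the Notch effector) and TGANTCA (AP-1), because these factors act in glial differentiation or growth factor response. Of 32851 mouse promoters of that length, 7.02% held the STAT motif, 12.3% the nuclear factor I motif, 5.42% the RBPJ motif and 6.75% the AP-1 motif. Among these 8 markers, Gja1 held 1 AP-1 match, Slc1a3 1 STAT match, and S100b and 1 of 3 Apoe starts held 1 nuclear factor I motif each. Gja1, Slc1a3 and Gfap are printed as markers that ordered the libraries alike, with any match in capitals, 5′ to 3′ on the gene's strand. The matches describe letters only.
Gja1 (chr10:56377050-56377299, plus strand): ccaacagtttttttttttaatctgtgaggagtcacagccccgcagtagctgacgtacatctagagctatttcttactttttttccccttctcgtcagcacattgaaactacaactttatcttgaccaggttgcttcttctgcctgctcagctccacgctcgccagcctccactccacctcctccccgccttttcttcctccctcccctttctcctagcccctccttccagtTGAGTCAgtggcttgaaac
Slc1a3 (chr15:8710808-8711057, minus strand): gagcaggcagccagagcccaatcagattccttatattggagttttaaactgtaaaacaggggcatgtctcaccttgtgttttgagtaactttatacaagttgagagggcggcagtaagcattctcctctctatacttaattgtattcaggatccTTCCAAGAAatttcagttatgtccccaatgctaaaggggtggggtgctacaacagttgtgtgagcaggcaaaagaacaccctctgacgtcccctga
Gfap (chr11:102897201-102897450, minus strand): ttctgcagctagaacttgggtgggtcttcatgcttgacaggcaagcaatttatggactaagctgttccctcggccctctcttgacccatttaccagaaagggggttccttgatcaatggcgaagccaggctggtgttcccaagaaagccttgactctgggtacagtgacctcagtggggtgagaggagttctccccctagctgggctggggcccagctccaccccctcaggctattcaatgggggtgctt

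A wider list of 45 other astrocyte genes was read beside the 10. Of its 36 tested genes, 27 had a fold change above 0 and 9 below, with a median log2 fold change of 0.68, and 0 passed by edgeR. At an unadjusted p under 0.05, 10 were higher in the knockout and 2 lower, and the groups did not overlap for 11 on the higher side and 0 on the lower. Over all tested genes these shares were 6.7% and 9.19% at that p, and 12.3% and 11.3% not overlapping. Without WT replicate 3, 5 genes of the list were called higher and 3 lower, in a fit that called 5.01% and 7.97% of all tested genes. Dio2, the deiodinase that activates thyroid hormone in glia, had 13.54, 24.1 and 14.5 CPM in the knockout libraries, against 4.76, 4.80 and 4.54 CPM in WT (edgeR log2 fold change 1.88, SE 0.417, adjusted p = 0.197). Ppp1r3c, a glycogen-targeting phosphatase subunit, averaged 205 ± 16.3 CPM in knockout and 93.7 ± 25.3 CPM in WT libraries (edgeR log2 fold change 1.12, SE 0.272, adjusted p = 0.197). With single libraries left out, 26 to 32 of the 36 to 39 tested genes of this list had a fold change above 0. Its median stayed between 0.45 and 0.82, while that of the 10 markers ran from -0.24 to 0.88. The summed level of the list nevertheless followed the same library order, at 8597, 11690 and 10780 CPM in the knockout libraries, against 11870, 17260 and 6809 CPM in WT. Much of the WT sum came from Ckb (5001, 5708 and 2305 CPM in WT replicates 1, 2 and 3) and Mfge8 (1139, 3823 and 287 CPM). Not every gene of the list followed that order. Cst3 (516, 205 and 314 CPM) and Cspg5 (68.8, 31.2 and 88.1 CPM) were lowest in WT replicate 2.

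More genes listed as regulators of gliogenesis lay above 0 than below. They do not all promote it, so the counts give no direction for gliogenesis itself. Of 36 listed genes 35 were tested, 24 with a fold change above 0 and 11 below, with a median log2 fold change of 0.28, and 0 passed. Of all tested genes 49.68% were above 0. At an unadjusted p under 0.05 by edgeR, 6 were higher and 3 lower, beside 6.7% and 9.19% of all tested genes. Nr2f2, the nuclear receptor COUP-TFII, averaged 42.4 ± 7.50 CPM in knockout and 11.1 ± 3.54 CPM in WT libraries (edgeR log2 fold change 1.91, SE 0.346, adjusted p = 0.197). Etv5, an ETS factor induced by FGF signalling, averaged 58.0 ± 11.8 and 144 ± 96.6 CPM in knockout and WT libraries (edgeR log2 fold change -1.30, SE 0.435, adjusted p = 0.238).

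Of 12 radial glia and progenitor markers, all tested, 9 had a fold change above 0 and 3 below (median log2 fold change 0.18), with 0 passing and, at an unadjusted p under 0.05 by edgeR, 3 higher and 0 lower. Their summed level was 6708, 8238 and 7020 CPM in the knockout libraries, against 6238, 6140 and 5926 CPM in WT. Vim made up much of that sum, at 2983, 3210 and 2731 CPM in WT replicates 1, 2 and 3, and single genes of the list were less level, such as Fabp7, a fatty acid-binding protein gene of radial glia, with 689, 2132 and 1547 CPM in the knockout libraries, against 352, 73.5 and 708 CPM in WT. Hopx, a homeodomain-only protein of neural stem cells and astrocytes, averaged 14.8 ± 7.05 CPM in knockout and 4.57 ± 2.75 CPM in WT libraries (edgeR log2 fold change 1.56, SE 0.547, adjusted p = 0.240). Nr2e1, the stem cell receptor Tlx, averaged 22.3 ± 2.57 and 8.70 ± 3.13 CPM in knockout and WT libraries (edgeR log2 fold change 1.31, SE 0.368, adjusted p = 0.212). Of 22 reactive astrocyte genes 10 were tested, 6 with a fold change above 0 and 4 below, with a median log2 fold change of 0.46, 0 passing, and 3 in each direction at an unadjusted p under 0.05 by edgeR. Beside these and the radial glia counts at that p, 6.7% of all tested genes were higher and 9.19% lower. C3, the complement component also made by liver, averaged 5.62 ± 1.84 CPM in knockout and 39.0 ± 27.8 CPM in WT libraries (edgeR log2 fold change -2.75, SE 0.635, adjusted p = 0.197). Aspg, an asparaginase, averaged 5.24 ± 0.399 and 45.6 ± 45.4 CPM in knockout and WT libraries (edgeR log2 fold change -3.06, SE 0.733, adjusted p = 0.197). Without WT replicate 3, calls appeared in these lists too: 2 higher and 2 lower among 35 gliogenesis regulators tested, and 2 and 0 among 12 radial glia markers. They were 0 and 4 among 12 reactive astrocyte genes, 3 and 1 among 13 lipoprotein genes, and 1 and 1 among 14 glutamate genes. That fit called 5.01% of all tested genes higher and 7.97% lower.

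Summed levels of hepatocyte, choroid plexus and microglia markers were highest in WT replicate 2, as the summed level of the 10 markers was, while those of neuron and oligodendrocyte lineage markers were not. Slc1a3 and Apoe, at 2536 and 1500 CPM in WT replicate 2, made up most of the sum of the 10 markers there. A list of 36 hepatocyte genes summed to 136, 91.5 and 102 CPM in the knockout libraries, against 665, 992 and 200 CPM in WT. Of its 26 tested genes 26 had a fold change below 0, 23 of them at an unadjusted p under 0.05 and 0 past the adjusted threshold by edgeR. The share of all tested genes lower at that unadjusted p was 9.19%. Mug1, a plasma protease inhibitor gene, averaged 5.28 ± 0.895 CPM in knockout and 40.4 ± 24.9 CPM in WT libraries (edgeR log2 fold change -2.90, SE 0.513, adjusted p = 0.197). Alb, albumin, had 79, 48 and 62 reads in the knockout libraries, against 253, 52 and 82 in WT. In CPM these were 11.9, 7.915 and 9.25 in the knockout, against 75.3, 41.6 and 18.6 in WT. Afp, a fetal liver marker, had 3 reads in WT replicate 2 and 0 elsewhere. Without WT replicate 3, 24 of 32 tested hepatocyte genes were called lower and 0 higher, beside 7.97% and 5.01% of all tested genes. WT replicates 1 and 2 held the highest hepatocyte sums, and 8 of the 10 markers were lowest among WT libraries in replicate 3. For those that liver expresses strongly, the WT libraries spanned 9.15-fold (Apoe), 8.95-fold (Clu), 1.63-fold (Glul) and 2.01-fold (Aldh1l1). For the others they spanned 1.90-fold (Aqp4), 454-fold (Gfap, with 1 read in WT replicate 3), 2.33-fold (Gja1) and 2.67-fold (Slc1a3). The part of hepatocyte transcripts in the marker levels was not tested.

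Choroid plexus markers summed to 30.4, 27.0 and 36.3 CPM in the knockout libraries, against 40.2, 184 and 22.0 CPM in WT. The high value came from Ttr, transthyretin, with 134 CPM in WT replicate 2, while Kl and Folr1 had no read in any library. That sum thus follows Ttr rather than the list as a whole, and the source of the Ttr reads was not tested. Microglia and macrophage markers, a cell class that also makes Apoe, summed to 3.61, 2.64 and 0.746 CPM in the knockout libraries, against 3.27, 35.2 and 5.45 CPM in WT. In WT replicate 2 the receptor gene Csf1r had 21 reads, and the defining markers Tmem119 and Itgam had none in any library. Too few genes of the choroid plexus (2 of 10), ependymal (1 of 10), endothelial and mural (2 of 8), microglia (0 of 14) and erythroid (0 of 8) lists were tested to count directions. Of 10 tested neuron markers 4 had a fold change above 0 and 6 below (median -0.76), and of 11 tested oligodendrocyte lineage markers 8 and 3 (median 0.28), with 0 passing in either list.

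**Figure D4:**
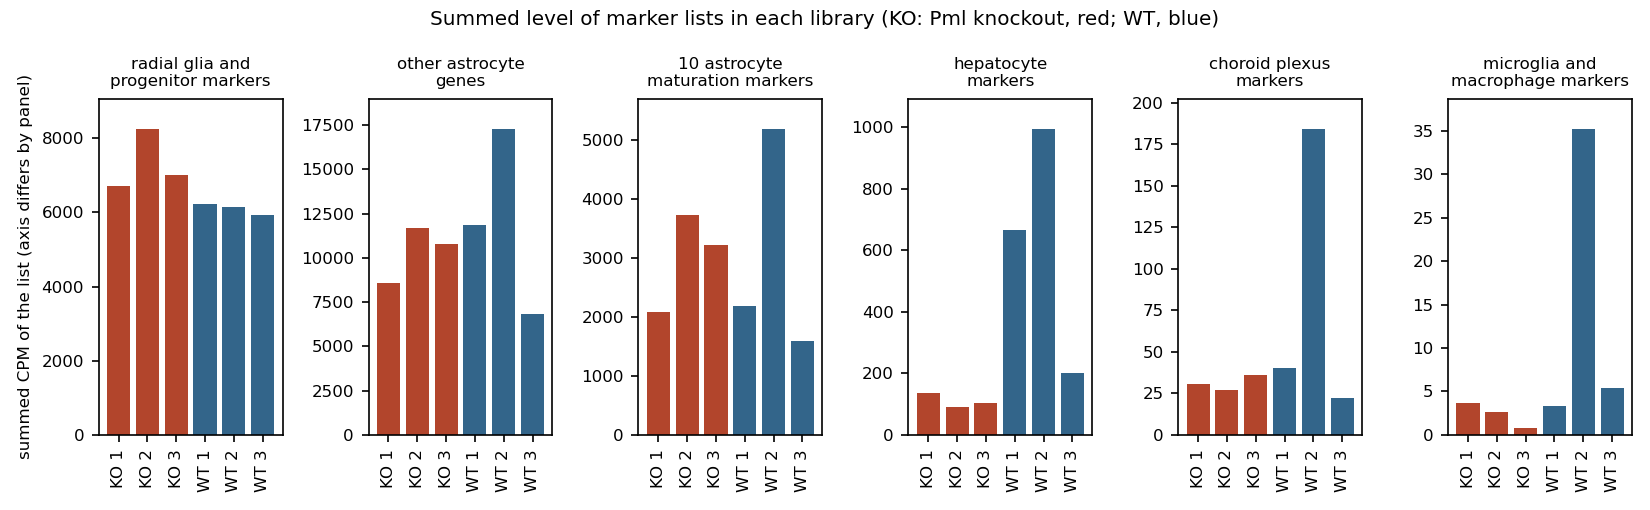
Summed CPM of 6 marker lists in each library (bars start at 0, axis range differs by panel), with Pml knockout libraries (KO, red) left of WT libraries (blue). WT replicate 2 is the highest bar for the 10 astrocyte maturation markers (5180 CPM), hepatocyte, choroid plexus and microglia lists. In that library Slc1a3 (2536 CPM) and Apoe (1500 CPM) are most of the marker bar, and Ttr is most of the choroid plexus bar. The radial glia sum, of which Vim is a large share, is between 5926 and 6238 CPM in WT.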

How the data were processed

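In the table the authors deposited, each gene symbol has a raw count (whole reads, not normalized) per library. Per the submitters' processing notes, FastQC, HISAT2, HTSeq, edgeR and the mm10 build were used, while the sources used here give no versions, annotation or strand setting. Also in it are the authors' log2 fold changes and adjusted p-values, per the file headers, which are quoted only as theirs. A further 6 per-sample columns (normalized values) were not used. Columns were matched to samples by library name in the labels.

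The tests ran in edgeR 4.0.16 (R 4.3.3). Genes passed edgeR's filter (count minimum 10, total minimum 15), library factors were trimmed means of M values, and the robust quasi-likelihood F test compared Pml knockout with WT, fitted on all genes with Benjamini-Hochberg adjustment at 0.05. The SE is the fold change over the square root of F, and intervals are at the 95% level. Alternatives used DESeq2 1.42.0, limma 3.58.1 and edgeR's exact test, other normalizations and filters, and libraries left out. On simulated data with these library sizes and dispersions (11154 genes tested), 88% of 4-fold rises, 68% of 4-fold falls, 4% of 2-fold rises and 6% of 2-fold falls were recovered. Only a small set of genes above a minimum CPM was changed, and each gene was drawn independently. Differences that real libraries share across many genes were not simulated, so these shares may not hold for the libraries here. Intervals cover no PCR duplication.

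The 10 markers and all gene lists were chosen with earlier results of these data known. Genes named from a list were taken from the 2 with its smallest p, and genes named for a like profile from the 2 nearest to each marker. Some genes that this rule names are not reported here. Sox2, Vim, Fabp7, Gjb6, Trpv4, Alb, Afp, Ckb, Mfge8, Cst3, Cspg5 and the marker genes with few reads were named after their values were seen. Coordinates are from GENCODE M21 (GRCm38, which mm10 names). Every pair of libraries differed by more than counting noise.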

Additional observations from a re-analysis of the deposited data

How the results depend on the processing

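Of the 10 markers, 0 passed in either direction with all libraries and edgeR's quasi-likelihood test. The number called higher was 1 with DESeq2, 1 with the edgeR exact test, 3 with limma voom with quality weights and 1 without both WT replicates 1 and 2. With single libraries left out it ran from 0 to 1, and so did the number called lower. Over all genes, calls ran from 0 to 589 higher and 0 to 937 lower with single libraries left out (both maxima without WT replicate 3). DESeq2 called 105 higher and 223 lower, the exact test 147 and 211, quality weights 482 and 760, and the fit without both WT replicates 91 and 51.

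Aqp4, Gja1 and Slc1a2 kept their sign in all 20 alternatives, and 7 markers did not. With single libraries left out, the log2 fold change ran from -2.82 to 0.90 for Gfap, -1.03 to 1.16 for S100b, -0.22 to 0.59 for Slc1a3, -0.23 to 0.25 for Aldh1l1, -0.44 to 0.22 for Glul and -0.57 to 1.05 for Apoe. Without both WT replicates 1 and 2 it was 5.54 for Gfap, which then rests on 1 WT read, 0.95 for S100b, 0.23 for Glul, 2.00 for Apoe and 0.60 for Clu. With limma voom it was 1.25 for Gfap, 0.30 for S100b and 0.21 for Apoe. With quality weights it was 0.19 for Gfap, 0.94 for S100b, -0.094 for Aldh1l1, 0.045 for Glul and 0.38 for Apoe. With library totals, which moved the median of all genes by 0.44, it was 0.11 for S100b, 0.47 for Glul and 0.56 for Apoe. With no count filter Glul stood at 0.0010. The cause of these changes was not tested.

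Same-numbered libraries of the 2 genotypes deviated from their group means with correlations of -0.0025, 0.067 and 0.19 across genes, so the numbers were not taken to pair the samples, and not every library correlated best with its own number. With the replicate number as a block, 0 markers were called, 1 gene was called higher and 1 lower over all genes, and Apoe stood at 0.13.

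Depth was lowest in WT replicate 2, and 3 libraries per genotype recovered few simulated 2-fold changes (4% of rises and 6% of falls).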
